A study of Mus musculus with 19 samples.

Results

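The 51 genes described here encode parts of the primary cilium: the trains of intraflagellar transport (IFT), the BBSome, the transition zone, the inversin compartment, the motors, a set of small GTPases with a cargo adaptor, and 1 basal body protein. They were chosen by gene symbol, not by measured value, and all 51 were present among the 35976 rows of the deposited count table. All 51 also passed the filter on low counts, which left 16463 genes for testing. Expression was measured by RNA sequencing of bulk liver from littermate mice of 3 Pkd1 genotypes, named WT, Het and Homo in the labels, with 7, 6 and 6 animals. Mice of every genotype, WT included, had received AAV-Cre (an adeno-associated virus that carries Cre recombinase) and had been kept for 3 months on a Western diet with carbon tetrachloride, a model of non-alcoholic steatohepatitis (NASH). The labels do not state the Pkd1 allele, the promoter that drives Cre, the cells that were transduced, or the age and sex of the mice.

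The primary cilium is a single, non-motile projection of the plasma membrane that grows from a centriole and serves as a sensor. Polycystin 1, the product of Pkd1, and polycystin 2 act as a receptor and channel complex in its membrane. In liver, bile duct cells carry a primary cilium that reaches into the duct lumen, while hepatocytes are generally described as lacking one. IFT-B trains, pulled by kinesin 2, carry cargo to the tip, IFT-A trains with cytoplasmic dynein 2 bring it back, the BBSome moves membrane receptors out of the cilium, and the transition zone is the gate at its base.

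Library totals ran from 25.85 M to 42.14 M counts (M for mega), and the 51 genes together took 0.0425% to 0.0568% of them. Pkd1 itself stood at 405.5 ± 38.6 CPM (counts per M of its library's scaled total; SD, n = 7) in WT, 390.0 ± 46.2 (SD, n = 6) in Het and 357.1 ± 19.7 (SD, n = 6) in Homo livers, and none of its differences passed an adjusted p of 0.05 (Homo against WT: log2 fold change -0.18, adjusted p = 0.315, edgeR's quasi-likelihood test). Counts over the whole gene do not show whether a floxed part was removed. The 8 hepatocyte markers summed to 26790 to 33630 CPM in every liver, against 131.0 to 273.0 CPM for the 10 bile duct markers (the epithelium best known for a primary cilium). In such bulk samples, fewer cells of a type and less RNA per cell cannot be told apart.

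A feature that many of these genes share, and that the choice by symbol did not use, lies in their promoters. RFX transcription factors, which control ciliary genes, bind an element called the X-box, searched here as GTNNCC and GNAAC with 3 bases of any kind between them, on both strands, from 250 bases before to 50 bases after each annotated start (RefSeq, GRCm38.p6). It was found in 14 of the 47 cilium genes with a promoter in that table (29.8%), against 357 of the 12101 tested genes with one (2.95%) and 673 of all 27025 genes with one (2.49%). The 9 of 14 transition zone genes with a match were joined by 3 of 8 BBSome genes and 2 of 9 IFT-B genes, while 0 of 5 IFT-A genes, 0 of 4 motor genes and 0 of 4 GTPase and adaptor genes held one. The shorter sequence GTTGCC, which can lie within the X-box, was found in 22 of the 47 (46.8%) and in 14.6% of tested genes. A match is a description of letters and not a binding site, and its absence says only that these letters are not in the window. The sequences below are those of the 5 genes with a match that the expression results name, and of Mks1 and Tmem237 as further transition zone genes. Each runs 5′ to 3′ on the gene's strand with the 14 matched bases in capitals (those of Bbs1, Ift57 and Tmem237 match on the opposite strand, where they are read as the reverse complement):
Tctn1, chr5:122264411-122264432: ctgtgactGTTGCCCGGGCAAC
Bbs7, chr3:36613489-36613518: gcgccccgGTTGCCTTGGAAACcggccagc
Bbs1, chr19:4906605-4906634: ctgagctgGTTGCCAAGGCGACgcctggga
Ift57, chr16:49699199-49699228: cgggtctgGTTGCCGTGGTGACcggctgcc
Nphp4, chr4:152477903-152477932: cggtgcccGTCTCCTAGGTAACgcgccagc
Mks1, chr11:87853183-87853212: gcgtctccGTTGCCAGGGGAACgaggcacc
Tmem237, chr1:59120102-59120131: tagtcagcGTTGCCATGGCGACgcctccgg
Of these, Tctn1, Bbs7 and Mks1 match in both directions. The match of Nphp4 belongs to the most downstream of its 3 listed starts. The RFX factors themselves were measured as well: of the 7 tested genes among RFX factors and Foxj1, 0 passed in any comparison (edgeR), with unadjusted p under 0.05 for 0 in Homo against WT, 2 in Het against WT and 1 in Homo against Het (all tested genes: 12.9%, 8.84% and 6.29%). Foxj1, the master factor of motile cilia and named here after its values were seen, gave 1 of the 2 and the 1. It stood at 0.756 ± 0.588 CPM (SD, n = 7) in WT, 0.221 ± 0.0891 (SD, n = 6) in Het and 0.637 ± 0.104 (SD, n = 6) in Homo livers. Its log2 fold change was -1.74 in Het against WT (adjusted p = 0.342, edgeR) and 1.49 in Homo against Het livers (adjusted p = 0.443, edgeR). Rfx3, an RFX factor tied to cilium formation, stood at 37.9 ± 5.14 CPM (SD, n = 7) in WT and 34.1 ± 4.73 (SD, n = 6) in Homo livers (adjusted p = 0.663, edgeR), and Rfx1 and Rfx5 had log2 fold changes of 0.11 and 0.08 in Homo against WT livers (adjusted p = 0.657 and 0.814, edgeR).

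Most cilium genes were expressed at a low level. Per kilobase of exon, the WT mean had a median of 0.884 CPM over the 51 genes and reached 1 or more in 24 of them. Genes were also ranked by their mean per kb over all 19 livers, among the 14942 tested genes of known exon length. There the median cilium gene lay at the 31.9th percentile, and 11 of the 51 lay above the 50th. Ift20, an IFT-B subunit that also works at the Golgi, was highest at 15.2 ± 1.26 CPM per kb (SD, n = 7), and Nphp4, a transition zone scaffold, was lowest at 0.0532 ± 0.0722 (SD, n = 7). After Ift20 came Ift52 (8.38 ± 0.906 CPM per kb, an IFT-B core subunit), Invs (8.36 ± 0.854, the scaffold of the inversin compartment), Ift74 (5.6 ± 1.52, an IFT-B tubulin-binding subunit) and Kif3a (4.85 ± 0.440, a kinesin 2 motor subunit), each SD with n = 7. Ift52 and Invs did not differ beyond their spread, nor did Ift74 and Kif3a.

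Levels varied widely within most complexes. Among IFT-B genes the WT mean ran from 0.174 CPM per kb for Ift57 to 15.2 for Ift20, although their products belong to 1 complex. IFT-A genes ran from 0.272 for Wdr19 to 2.93 for Ift140, BBSome genes from 0.113 for Bbs1 to 2.27 for Bbs9, and transition zone genes from 0.0532 for Nphp4 to 3.85 for Cc2d2a. The 4 motor genes were the most alike, at 2.06 for Kif3b to 4.85 for Kif3a. These levels divide by the union of all annotated exons, so a long union lowers them. In WT livers Ift46 had 28.3 CPM and Ift20 23.2, but 4.41 and 15.2 CPM per kb, on 6416 and 1525 exon bases. The part of annotated length in the spread within a complex was not tested. Of the 51 genes, 17 had a mean of 10 CPM or more and 7 a mean under 1 CPM. The median biological coefficient of variation was 21.5% for cilium genes against 18.5% for all tested genes.

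**Figure D1:**
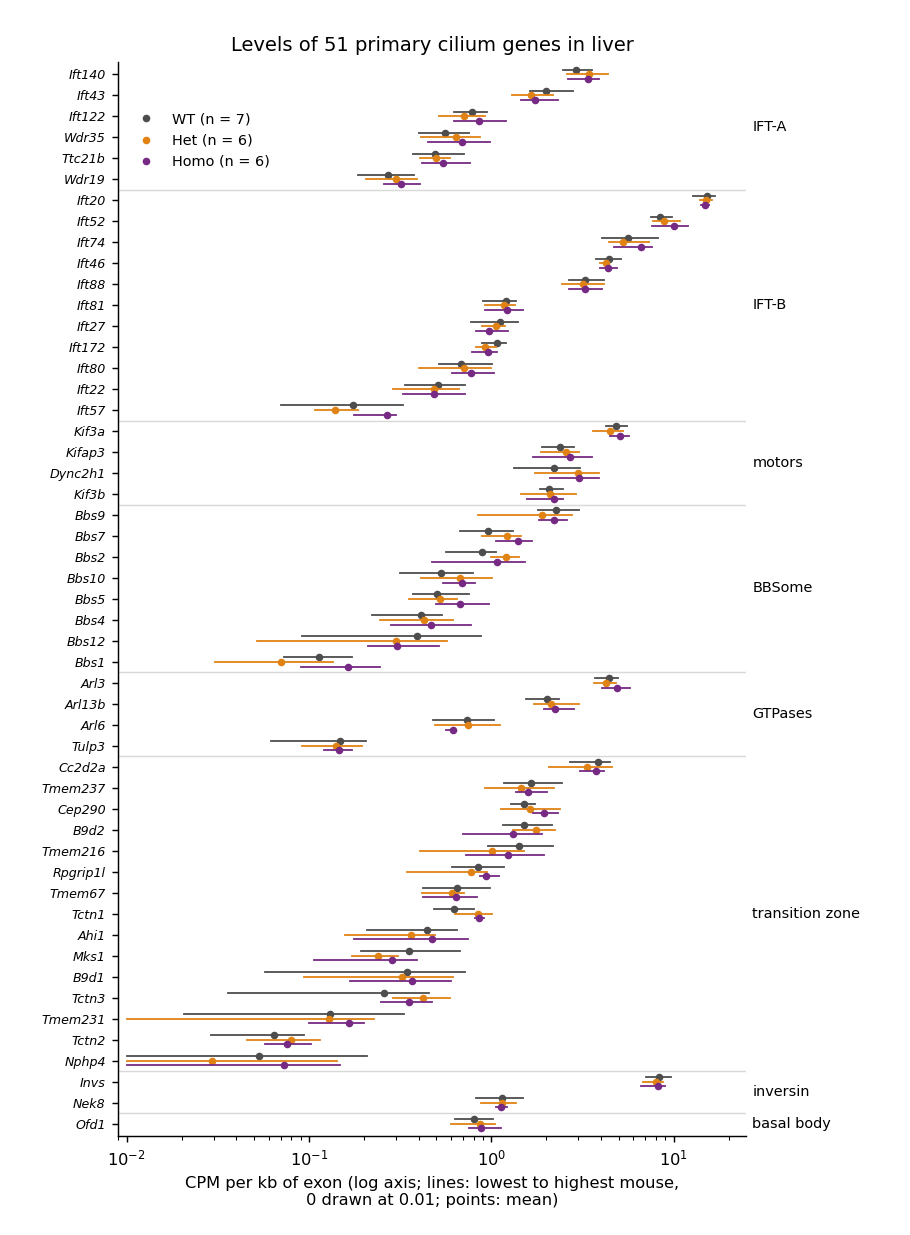
Level of each of the 51 cilium genes by genotype, in CPM per kilobase of exon on a log axis. Points are means, lines run from the lowest to the highest mouse (WT n = 7, Het n = 6, Homo n = 6), and a library at 0 is drawn at 0.01. Within most complexes the genes span a wide range. The lines of all 3 genotypes overlap for every gene but Tctn1, whose Homo line lies above its WT line.

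The comparison of Homo with WT livers asks whether cilium genes change where both Pkd1 copies are altered. None of the 51 passed an adjusted p of 0.05 in edgeR's quasi-likelihood test, where 0.480% of all tested genes did. At an unadjusted p under 0.05 there were 6 cilium genes, all higher in Homo livers (11.8% of the 51, against 12.9% of all tested genes in either direction and 6.37% that were higher). The log2 fold changes ran from -0.36 for Bbs12 to 0.62 for Ift57, with 32 of 51 above 0 (all tested genes: 50.3%) and a median of 0.13 (all tested genes: 0.0019). The median SE was 0.175, and 48 of the 51 lay within 0.5 of 0. DESeq2 called 2 of the 51, Tctn1 and Bbs7 (all tested genes: 304 of 16463), and limma-voom called 0 (all tested genes: 91 of 16463).

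Tctn1 (chr5:122237848-122264460, minus strand, GRCm38) encodes tectonic 1, a secreted or membrane-tethered part of the transition zone that Hedgehog signalling needs. Its lowest, median and highest values were 4.02, 5.0 and 6.67 CPM in WT, 5.21, 7.14 and 8.38 in Het, and 6.75, 7.05 and 7.56 in Homo livers. It was the only one of the 51 whose Homo and WT values did not overlap, which held with Homo higher for 0.528% of all tested genes, while Het overlapped both. The log2 fold change was 0.46 (SE 0.11, adjusted p = 0.079, edgeR) for Homo against WT and 0.44 (SE 0.11, adjusted p = 0.342, edgeR) for Het against WT, and these comparisons share the WT livers. With DESeq2 the adjusted p for Homo against WT was 0.0115. In edgeR with 1 library left out at a time (13 fits), it ran from 0.0319 to 0.17. It was under 0.05 in 1 of these fits, the one without the fourth WT liver, which had the highest WT value. In the annotation, 1574 exon bases of Tctn1 lie opposite exons of Hvcn1, a proton channel gene on the other strand, and since the strand setting of the counting is not given in the sources used here their reads may not be separable. Hvcn1 had a log2 fold change of 0.26 (adjusted p = 0.540, edgeR).

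Bbs7 (chr3:36573142-36613477, minus strand), a BBSome subunit, gave the next smallest p. Its lowest, median and highest values were 3.64, 5.07 and 7.10 CPM in WT, 4.81, 6.81 and 7.81 in Het, and 5.71, 7.58 and 9.01 in Homo livers, so the 3 genotypes overlapped. Homo exceeded WT by a log2 fold change of 0.54 (SE 0.15, adjusted p = 0.133 in edgeR and 0.0423 in DESeq2). Across the 8 genes of the BBSome list, 6 were above 0 with a median of 0.33, the highest median of any role, and only Bbs7 had an unadjusted p under 0.05. The list is not the BBSome itself. It holds Bbs10 and Bbs12 (log2 fold changes 0.39 and -0.36), which are genes of BBSome assembly and not subunits. It leaves out the subunits Ttc8 and Bbip1, with log2 fold changes of -0.34 and -0.33 (adjusted p = 0.315 and 0.409, edgeR). Bbs5, which binds membrane phosphoinositides, had a log2 fold change of 0.42 (adjusted p = 0.421, edgeR), with WT livers at 0.906 to 1.84 CPM and Homo livers at 1.22 to 2.37.

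Among IFT-B genes 5 of 11 were above 0 with a median of -0.01. Ift52 ranged from 21 to 27.5 CPM in WT and from 21.3 to 33.4 in Homo livers, with a log2 fold change of 0.26 (adjusted p = 0.281, edgeR). Ift57, a subunit of the peripheral IFT-B complex, was counted with only 8 to 35 reads in each library. It ranged from 0.201 to 0.935 CPM in WT, from 0.308 to 0.532 in Het and from 0.503 to 0.860 in Homo livers, and the highest value of all belonged to a WT liver. Between Homo and WT its log2 fold change was 0.62 (SE 0.28, adjusted p = 0.368, edgeR). IFT-A genes were above 0 in 5 of 6 with a median of 0.18, and none had an unadjusted p under 0.05. Ift140, an IFT-A core subunit, is the only one of the 51 on chromosome 17, at chr17:25016085-25099495 (GRCm38) and 0.42 Mb from Pkd1. It ranged from 20.6 to 29.8 CPM in WT, from 21.7 to 36.4 in Het and from 21.9 to 32.3 in Homo livers (log2 fold change of Homo against WT 0.21, adjusted p = 0.451, edgeR).

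Of the 15 transition zone genes 9 were above 0 with a median of 0.11, and of the 4 motor genes 4 were, with a median of 0.14. These roles gave 2 further genes among the 8 with the smallest p. Cep290, a long coiled-coil protein that links the transition zone membrane to its microtubules, ranged from 14.9 to 20.3 CPM in WT and from 19.6 to 27.1 in Homo livers (log2 fold change 0.35, SE 0.14, adjusted p = 0.300, edgeR). Dync2h1, the heavy chain of cytoplasmic dynein 2, ranged from 21.8 to 50.1 in WT and from 34.4 to 63.3 in Homo livers (log2 fold change 0.45, SE 0.22, adjusted p = 0.385, edgeR). Both follow the number of the mouse, described further on. The 4 GTPase and adaptor genes, the inversin compartment genes and Ofd1 all lay between -0.26 and 0.15.

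**Figure D2:**
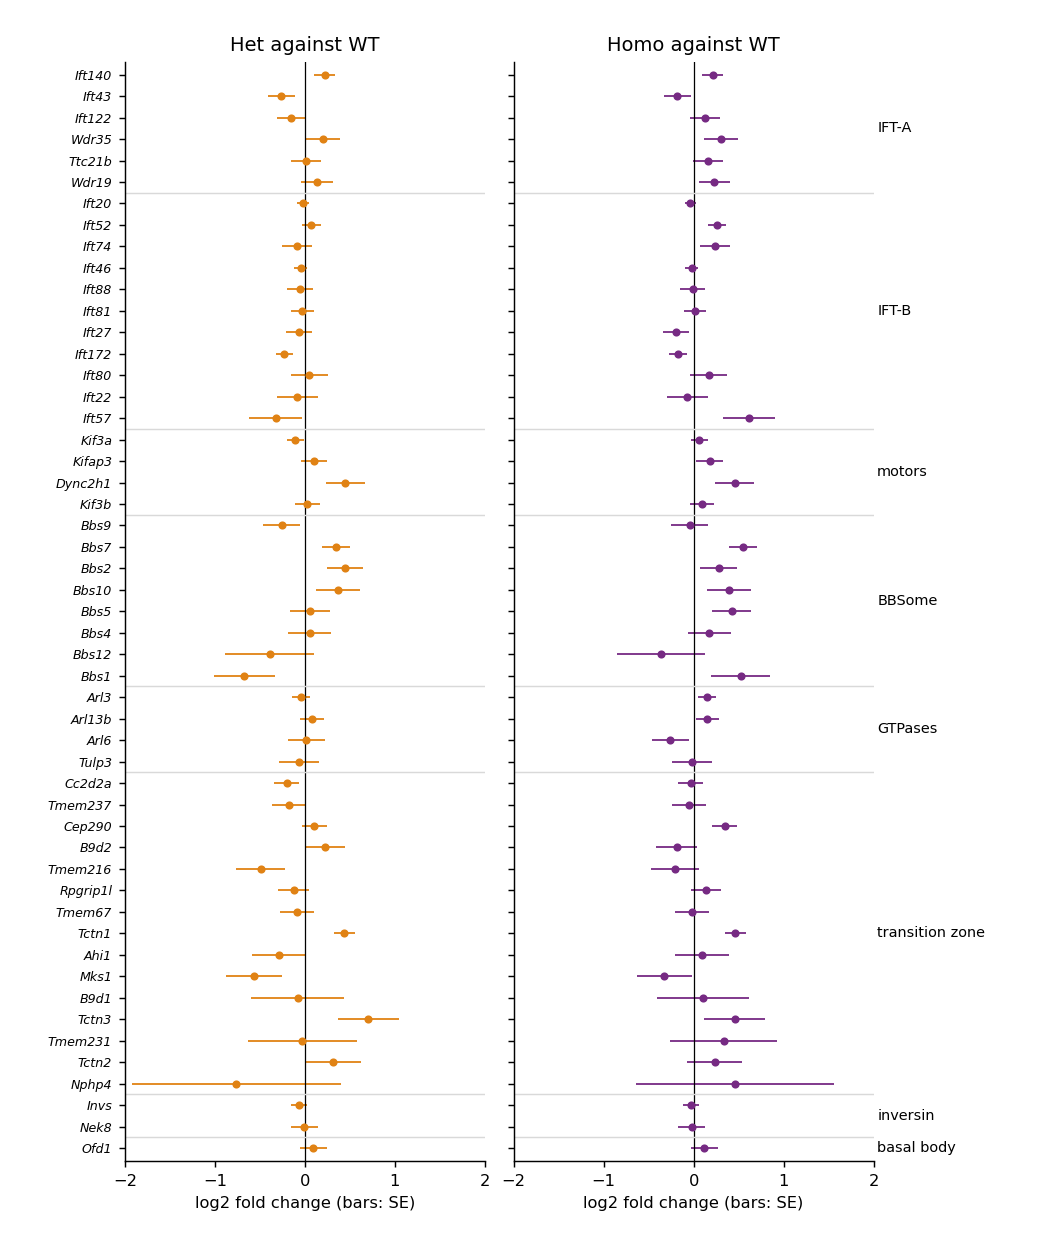
Log2 fold change of each cilium gene in Het and in Homo livers against the same 7 WT livers, with the SE as bars and the genes grouped by role. Homo values lie above 0 for 32 of 51 genes and Het values for 22 of 51; none passed an adjusted p of 0.05 in edgeR, and the widest bars belong to genes of low count such as Nphp4.

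**Figure D3:**
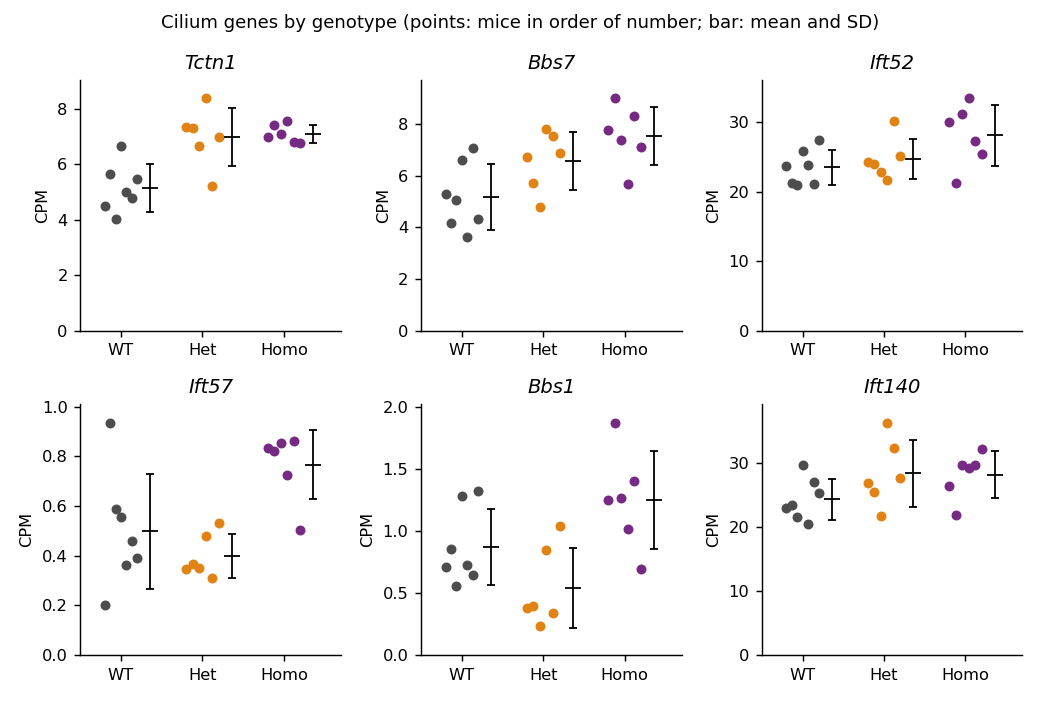
CPM of 6 cilium genes in each mouse by genotype, with the mean and SD beside the points. For Tctn1 every Homo liver lies above every WT liver, and for the other 5 genes the genotypes overlap.

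Het livers, which compare 1 altered Pkd1 copy with none, showed 0 cilium genes past an adjusted p of 0.05 in edgeR (all tested genes: 0.0243%), in DESeq2 and in limma-voom. With an unadjusted p under 0.05 there were 4 higher and 1 lower (9.80% of the 51, against 8.84% of all tested genes and 4.57% that were higher). Of the 51, 22 were above 0 (all tested genes: 49.1%), and the median log2 fold change was -0.03. After Tctn1, the smallest p belonged to Ift172, a large IFT-B subunit, at 5.92 to 7.92 CPM in WT and 5.43 to 7.04 in Het livers. Its log2 fold change was -0.23 (SE 0.10, adjusted p = 0.526, edgeR). Bbs2, another BBSome subunit, ranged from 1.86 to 3.53 CPM in WT and from 3.28 to 4.67 in Het livers (log2 fold change 0.45, SE 0.20, adjusted p = 0.544, edgeR), and Bbs7 had a log2 fold change of 0.35 (adjusted p = 0.541, edgeR).

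Homo against Het livers likewise gave 0 calls among the 51 in edgeR, DESeq2 and limma-voom (all tested genes in edgeR: 0.182%), and 2 genes with an unadjusted p under 0.05, both higher in Homo (3.92%, against 6.29% of all tested genes and 3.94% that were higher). Those were Bbs1 and Ift57. Bbs1, the BBSome subunit that binds the membrane GTPase Arl6, ranged from 0.557 to 1.32 CPM in WT, from 0.233 to 1.04 in Het and from 0.694 to 1.87 in Homo livers, with a log2 difference of 1.19 between Homo and Het (SE 0.35, adjusted p = 0.323, edgeR). For Ift57 the log2 difference was 0.94 (SE 0.30, adjusted p = 0.436, edgeR). In both genes Het livers lay below WT and Homo livers above it in the mean, and the values overlapped. Differences were small and mostly of 1 sign: 42 of 51 genes were above 0 (all tested genes: 49.7%), with a median of 0.08. In this comparison the log2 difference was also above 0 for 9 of 9 bile duct markers (4 called higher). It was above 0 for 7 of 8 stellate cell and 6 of 6 macrophage markers (0 called in both lists), and for 3 of 8 hepatocyte and 2 of 6 endothelial markers. The summed level of the 10 bile duct markers was 131.0 to 209.3 CPM in Het and 205.8 to 273.0 in Homo livers. Their part in the values of the cilium genes was not tested. Arl3, a GTPase that releases lipidated cargo inside the cilium, differed by 0.19 (adjusted p = 0.842) and Ift74 by 0.32 (adjusted p = 0.843), both by edgeR.

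More genes passed the test for the number in the sample titles than for genotype, among all tested genes as among cilium genes. Of all tested genes, 1054 passed for the number in edgeR. For genotype 79 passed in Homo against WT, 4 in Het against WT and 30 in Homo against Het livers. WT mice have the numbers 1 to 3, 9 and 11 to 13, Het mice 4, 6, 7, 14, 19 and 20, and Homo mice 8, 10 and 15 to 18. The labels do not say what the number stands for. In a fit with genotype and mouse number, 4 of the 51 genes passed an adjusted p of 0.05 for the number in edgeR (7.84%, against 6.40% of all tested genes), all rising with it (all tested genes: 3.17%). With an unadjusted p under 0.05 there were 14, all rising (27.5%, against 20.3% of all tested genes in either direction and 9.91% that rose). In all, 41 of 51 slopes were above 0 (all tested genes: 49.4%), and the median slope was 0.16 on the log2 scale per 10 mouse numbers. The direction did not hold in every genotype. In fits on 1 genotype at a time, added after the data were seen, the median slope was 0.22 within WT livers (41 of 51 above 0), 0.22 within Het livers (41 of 51) and -0.0366 within Homo livers (23 of 51). The mean log2 CPM of the 51 genes was 2.30 and 2.31 in Homo mice 8 and 10 and 2.28 to 2.38 in Homo mice 15 to 18. Over all 19 livers the mean log2 CPM of the 51 genes lay between 1.93 and 2.13 in the 6 mice numbered 1 to 7 and between 2.15 and 2.47 in the 13 numbered 8 to 20, without overlap, while the mean over all tested genes was 2.88 to 2.95 and 2.92 to 2.97. These ranges of numbers were chosen after the values were seen. The lack of overlap depends on Nphp4, whose log2 CPM at 0 reads is set by the prior count. Mouse 2 (WT) had the highest mean of mice 1 to 7, with Nphp4 at -4.12. Mouse 11 (WT) had the lowest mean of mice 8 to 20, with Nphp4 at 0.39.

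Dync2h1 (chr9:6928503-7184446, minus strand) had the steepest slope after Nphp4. Among WT livers it stood at 21.8, 27.3 and 25.2 CPM in mice 1, 2 and 3, and at 33.6, 46.7, 50.1 and 47.3 in mice 9, 11, 12 and 13. Among Het livers it stood at 40.3, 42.9 and 28.4 in mice 4, 6 and 7, and at 56.4, 62.1 and 64.0 in mice 14, 19 and 20. Homo mice 8 and 10 had 34.4 and 38.5, and mice 15 to 18 had 50.1, 52.6, 56.8 and 63.3. In each genotype every liver of the later block of numbers lay above every liver of the earlier block. The slope was 0.71 per 10 mouse numbers on the log2 scale (SE 0.08, adjusted p = 0.00028, edgeR), and in the fits on 1 genotype at a time it was 0.92 in WT (adjusted p = 0.00676), 0.52 in Het (adjusted p = 0.218) and 0.85 in Homo livers (adjusted p = 0.0791).

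Cep290 had a slope of 0.40 (SE 0.07, adjusted p = 0.0026, edgeR), with 13.2 to 17.9 CPM in mice 1 to 7 and 16.4 to 27.6 in mice 8 to 20. As with Tctn1, its reads may not be separable from those of a gene on the other strand, 4930430F08Rik, which shares 881 exon bases with it and had a slope of 0.28 (adjusted p = 0.087, edgeR). Kif3b, the partner of Kif3a in kinesin 2, had a slope of 0.32 (SE 0.09, adjusted p = 0.0294, edgeR), with 8.17 to 11.8 CPM in mice 1 to 7 and 8.85 to 16.4 in mice 8 to 20, while the slope of Kif3a was -0.11 (adjusted p = 0.437). Nphp4 gave the largest fitted slope, 3.46 (SE 0.93, adjusted p = 0.0324, edgeR), but on 0 to 45 reads per library. It had no read in 8 of the 19 libraries, so the size of that slope depends on the prior of the fit. The upper limit that a count of 0 allows for counting error is 3 counts, or 0.0712 to 0.116 CPM over the depths of all 19 libraries. The call of Kif3b was lost when any of 5 single libraries was left out (Het 1, 2 or 6, Homo 1 or WT 7), with slopes of 0.26 to 0.31, and that of Nphp4 was lost in 7 such fits (WT 1, 2 or 3, or Het 1, 2, 3 or 6). The calls of Dync2h1 and Cep290 held in all 19.

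**Figure D4:**
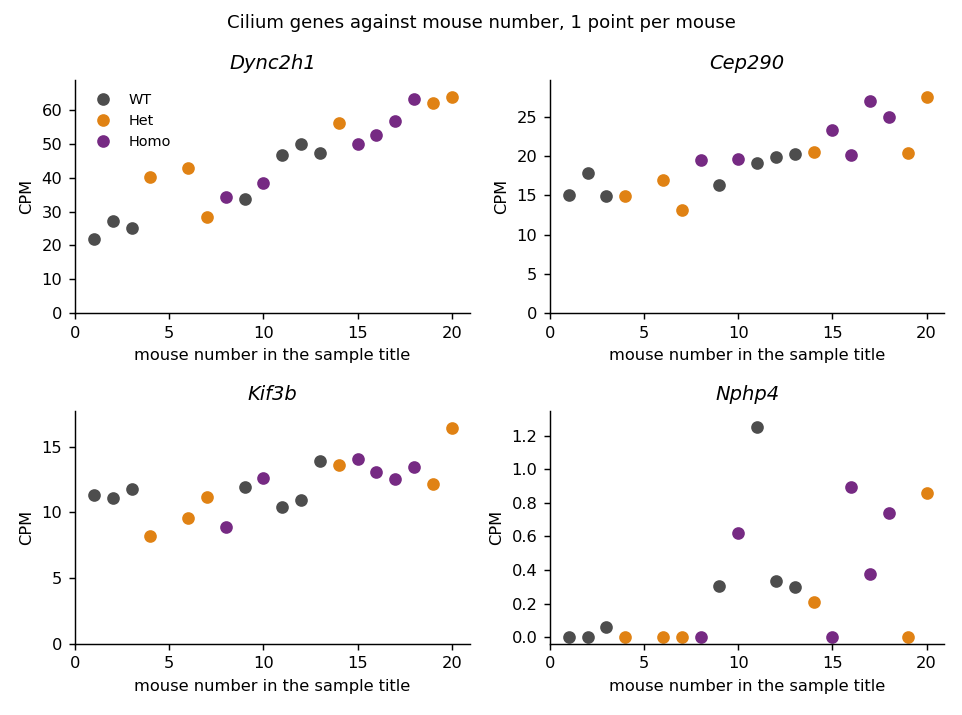
CPM of the 4 cilium genes called for mouse number, against the number in the sample title, with 1 point per mouse coloured by genotype. Dync2h1 rises from 21.8 CPM in mouse 1 to 64.0 in mouse 20, Cep290 and Kif3b rise less, and Nphp4 is at or near 0 in all mice numbered 1 to 8.

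Because Homo mice begin at number 8, mouse number moved with the comparison of Homo and WT livers. With the number as a covariate, the median log2 fold change of the 51 genes was -0.0119 with 25 above 0, against 0.13 and 32 without it. Without WT mice 1 to 3 it was 0.0043 with 26 above 0, and among mice 8 to 13 alone (2 Homo and 4 WT) it was -0.0193 with 25 above 0. The log2 fold change of Dync2h1 went from 0.45 to 0.01 with the covariate and to -0.29 among mice 8 to 13, and that of Cep290 from 0.35 to 0.08 and 0.04. Tctn1, whose own slope was -0.02 per 10 mouse numbers (adjusted p = 0.950), stood at 0.47 with the covariate, 0.37 without mice 1 to 3 and 0.39 among mice 8 to 13, and Bbs7 at 0.48, 0.48 and 0.62, none of these with an adjusted p under 0.05 (edgeR). For Homo against Het the median was 0.08 with the covariate and 0.02 among mice 14 to 20, where 27 of 51 genes were above 0.

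Exon length also moved with mouse number across the transcriptome. With the tested genes of known exon length cut into 4 bins of equal size, from the shortest to the longest bin the share with a called rising slope went from 1.18% to 5.73% and the median slope from -0.03 to 0.03. Over the same 4 bins the median slope of the cilium genes was 0.13, 0.22, 0.10 and 0.21, from 9, 12, 13 and 17 genes, so it lay above that of all genes in each of them. The part of RNA quality, or of any other property that goes with the number, in this pattern was not tested.

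**Figure D5:**
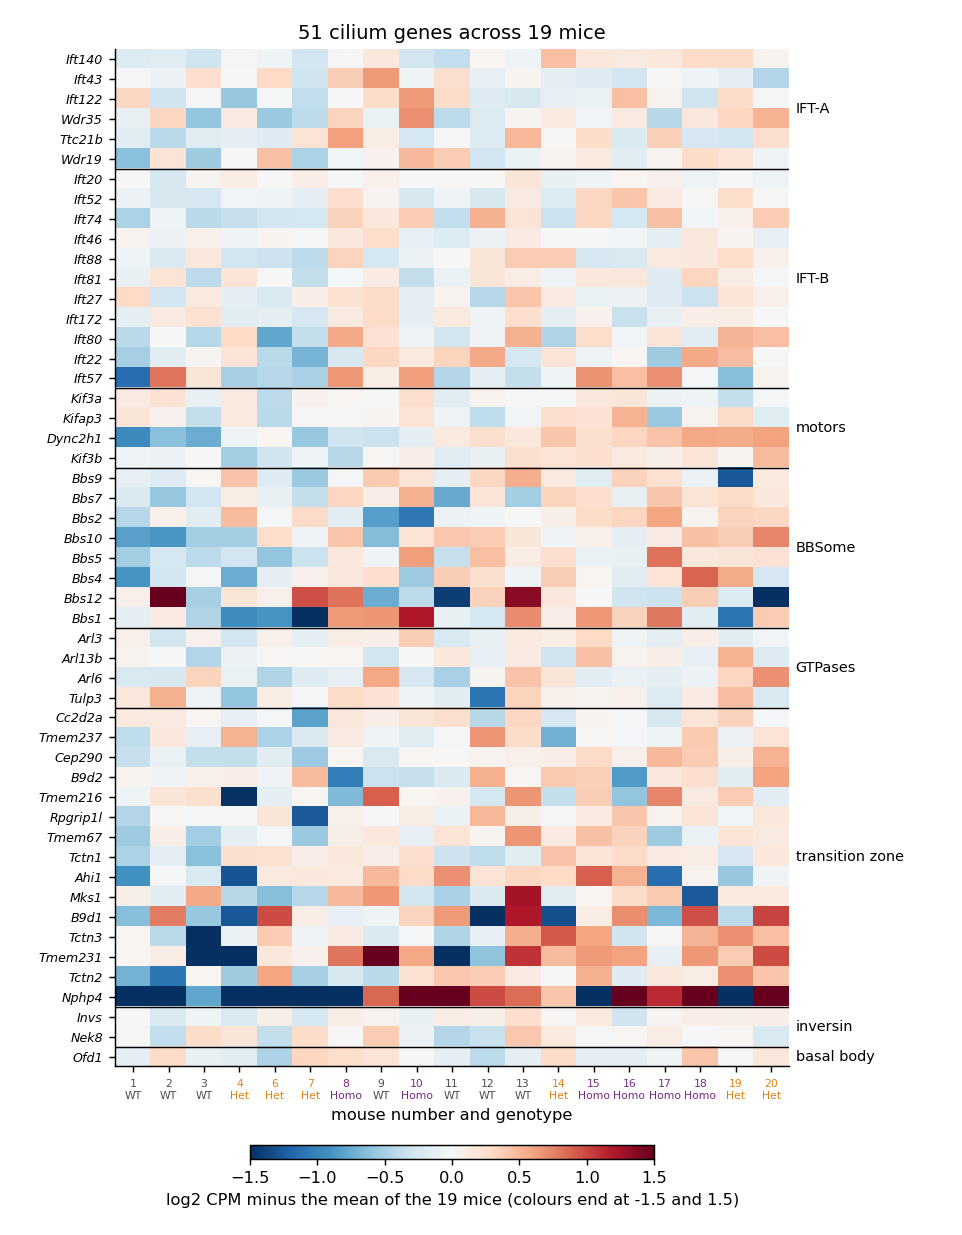
Log2 CPM of each cilium gene minus its mean over the 19 mice, with mice in order of their number and genes grouped by role; red is above the mean and blue below, and colours end at -1.5 and 1.5. Blue cells gather in mice 1 to 7, whose mean over the 51 genes lay between 1.93 and 2.13, and no role stands apart in Homo livers.

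The rest of the ciliary machinery was read from 8 further lists, of which 99 of the 115 genes in the table could be tested. In Homo against WT livers 57 of the 99 were above 0 (all tested genes: 50.3%). There were 17 that had an unadjusted p under 0.05, 8 higher and 9 lower (all tested genes: 12.9%), and 1 passed the adjusted threshold in edgeR (all tested genes: 0.480%). That gene, 1600002H07Rik (now Tedc2, part of a complex of epsilon and delta tubulin in centrioles), stood at 109.5 ± 13.8 CPM (SD, n = 7) in WT, 62.0 ± 8.96 (SD, n = 6) in Het and 23.2 ± 5.13 (SD, n = 6) in Homo livers. It fell by 2.24 on the log2 scale in Homo against WT livers (SE 0.13, adjusted p = 1.8e-09, edgeR) and by 0.82 in Het against WT livers (adjusted p = 0.00746, edgeR), and the 3 genotypes did not overlap. Of all 16463 tested genes, 63 were lower without overlap in Homo against WT, 13 in Het against WT and 29 in Homo against Het livers. 1600002H07Rik lies on chromosome 17, 0.33 Mb from Pkd1.

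Of the 18 other IFT, BBSome and motor genes tested, 12 were above 0 in Homo against WT livers and 0 were called. The nearest was Dynlt1b, a dynein light chain on chromosome 17, at 0.520 ± 0.184 CPM (SD, n = 7) in WT and 1.35 ± 0.322 (SD, n = 6) in Homo livers (log2 fold change 1.38, adjusted p = 0.0549, edgeR). Mkks, a chaperonin-like gene of BBSome assembly, and Ttc8, a BBSome subunit, had log2 fold changes of -0.21 (adjusted p = 0.232) and -0.34 (adjusted p = 0.315), the opposite sign to Bbs7. For mouse number this list had 2 genes called higher, Traf3ip1 (an IFT-B subunit, slope 0.50, adjusted p = 0.00096) and Wdr60 (a dynein 2 intermediate chain, slope 0.35, adjusted p = 0.0377), and 1 lower, Dynll1 (a dynein light chain, slope -0.49, adjusted p = 0.0461), all by edgeR. Among other transition zone and inversin genes, 7 of 12 were above 0 and 0 were called in any comparison, with Tmem17 at 0.48, Sdccag8 at 0.11 and Cspp1 at 0.09 in Homo against WT livers (adjusted p = 0.593 to 0.711).

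In the list of basal body and cilium assembly genes, 10 of 16 were above 0. Besides 1600002H07Rik the smallest p belonged to Rab23 and Rab11a, membrane-trafficking GTPases, with log2 fold changes of -0.36 (adjusted p = 0.205) and -0.18 (adjusted p = 0.278). For mouse number, Sclt1 and Fbf1, proteins of the distal appendages of the mother centriole, rose with slopes of 0.61 (adjusted p = 0.00132) and 1.02 (adjusted p = 0.00573), and Ccp110, which caps centrioles, with 0.30 (adjusted p = 0.0324). Over all 99 genes, 5 were called rising and 2 falling with the number, a share near the 6.40% of all tested genes that were called. The other falling gene was Ptch1, the Hedgehog receptor (slope -0.33, adjusted p = 0.0281, edgeR).

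Of 17 tested genes of ciliary membrane cargo and signalling, 10 were above 0 in Homo against WT livers, 4 were higher and 3 lower at an unadjusted p under 0.05 (all tested genes: 12.9% in either direction, 6.37% higher), and 0 were called in edgeR (all tested genes: 0.480%). Glis2 and Glis3, zinc finger transcription factors linked to cystic kidney disease, stood at 3.75 ± 1.05 and 5.94 ± 2.44 CPM (SD, n = 7) in WT and at 7.05 ± 2.68 and 11.0 ± 1.81 (SD, n = 6) in Homo livers, with log2 fold changes of 0.91 (adjusted p = 0.079) and 0.88 (adjusted p = 0.0954) in edgeR. Bicc1, an RNA-binding protein that acts downstream of the polycystins, had 0.48 (adjusted p = 0.226). The lower 3 were Pkd1, given above, and 2 genes named after their values were seen: Gpr161, a ciliary receptor that restrains Hedgehog signalling (log2 fold change -0.60, adjusted p = 0.317, edgeR), and Adcy5, an adenylyl cyclase (-0.71, adjusted p = 0.271, edgeR). Of the 9 tested Hedgehog pathway genes, 4 were above 0 in Homo against WT livers and 0 were called, with Ptch1 at -0.18, Hhip at 0.45 and Shh at 0.76 (adjusted p = 0.524 to 0.662). Gli1, the usual readout of that pathway, had at most 14 reads in any library and was not tested.

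Motile cilia, which need dyneins that primary cilia lack, gave few reads. The 14 genes of that list in the table summed to 18.4 to 29.2 CPM, of which Ccdc39 alone gave 11.7 ± 2.40 (SD, n = 7) in WT and 9.32 ± 0.489 (SD, n = 6) in Homo livers, and Mcidas and Gmnc, switches of multiciliated cells, had no read in any library. Dnah5, Dnah11 and Ccdc39 had log2 fold changes of -1.65, -0.61 and -0.33 in Homo against WT livers (adjusted p = 0.317 to 0.543 for these genes, edgeR), and 0 of 9 tested genes were called. Since cilia are taken down before division, genes of cilium disassembly and the cell cycle were listed too: 6 of 11 were above 0 and 0 were called. Mki67, a proliferation marker, stood at 8.62 ± 1.84 CPM (SD, n = 7) in WT and 14.3 ± 2.39 (SD, n = 6) in Homo livers (log2 fold change 0.73, adjusted p = 0.0832), with Top2a at 0.39 (adjusted p = 0.326) and Cdk1 at 0.44 (adjusted p = 0.567).

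Of 9 tested markers of bile duct cells, 7 were above 0 in Homo against WT livers (all tested genes: 50.3%). Of the 9, 3 were called, all higher (all tested genes: 0.480% called in either direction). The 10 markers summed to 134.3 to 230.3 CPM in WT, 131.0 to 209.3 in Het and 205.8 to 273.0 in Homo livers, and all 10 had reads. Krt7 and Krt19, the keratins of bile duct cells, and Cdh6, a cadherin, rose in Homo against WT livers by 3.06, 2.50 and 2.44 on the log2 scale (adjusted p = 0.00043, 0.00305 and 0.000824, edgeR). Even so, Krt19 reached only 6.76 ± 2.96 CPM (SD, n = 6) in Homo and 1.19 ± 0.865 (SD, n = 7) in WT livers. Epcam was called in Homo against Het livers only (1.38, adjusted p = 0.0437, edgeR). The 2 markers below 0 in Homo against WT livers were Cftr (-0.64, adjusted p = 0.703, edgeR) and Sox9 (-0.12, adjusted p = 0.874, edgeR). No stellate, endothelial or macrophage marker was called in any comparison, and the 3 with the smallest p of each list in Homo against WT livers had log2 fold changes of 0.10 to 0.29 (Col3a1, Dcn, Lum), -0.64 to -0.08 (Stab2, Lyve1, Cdh5) and -0.13 to 0.23 (Cd68, Vsig4, Itgax). Of the hepatocyte markers, Ttr fell with mouse number (slope -0.28, adjusted p = 0.0113), and Alb, Ttr and Cyp2e1 had 0.16, -0.25 and 0.28 in Homo against WT livers (adjusted p = 0.329 to 0.545, edgeR). Their part in the values of the cilium genes was not tested.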

How the data were processed

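Total RNA of 19 livers (7 WT, 6 Het and 6 Homo) was sequenced. Per the labels' protocols, libraries were made with a NuGen Ovation kit, and per the submitters' processing notes STAR 2.7.2b and featureCounts 1.6.4 were used with GRCm38. The deposited values are raw counts per gene, with 1 column per mouse, and no source used here gives the authors' settings for strand or shared reads. In 27 rows the symbol reads as a date; these took at most 0.174% of a library and hold no cilium gene. Groups come from the genotype label.

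Counts were tested with edgeR 4.0.16 (R 4.3.3): TMM scaling, filterByExpr by genotype, 1 quasi-likelihood fit over all 19 libraries for the 3 comparisons, and a second fit of genotype plus mouse number. p-values were two-sided and adjusted by Benjamini-Hochberg over 16463 genes, with a threshold of 0.05. SE was taken as |log2 fold change| over the root of F, and log2 CPM used a prior count of 2. Exon lengths are GENCODE unions on GRCm38, and promoter sequences are RefSeq's (GRCm38.p6). Alternatives used DESeq2 1.42.0, limma 3.58.1 (voom with quality weights), DESeq2 size factors, other filters, subsets of mice and each library left out. The code was tested on simulated data. Counts of any 2 livers of a genotype differed by more than sampling noise (chi-square over its degrees of freedom at least 22.6, 51 pairs).

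Members and lists were chosen with earlier results of these data known. Genes are named by rule: members called in any fit, 8 by smallest p in Homo against WT and 4 in each other fit, the 5 highest per length, Ift140, and of each other list 3 by that same p and every gene called, except 1 result that is not reported here. Values of other genes are given to show ranges. Each library being 1 mouse, p-values measure the spread between mice of a genotype.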

Additional observations from a re-analysis of the deposited data

Results flagged for a closer look

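In 11 of 153 sets of values (51 genes in 3 genotypes, 7.19%), 1 liver stood apart from the others of its genotype by more than Dixon's 95% limit, and chance alone gives about 1 in 20. Ift43, an IFT-A subunit, had 4.61 CPM in WT liver 4 (next highest 3.49) and 3.81 in Homo liver 1 (next 2.93). Arl13b, a GTPase of the ciliary membrane, had 15.4 CPM in Het liver 5 (next 10.8) and 14.5 in Homo liver 3 (next 11.5). Rpgrip1l, a transition zone scaffold, was low at 5.04 CPM in Het liver 3 (next lowest 11.9) and high at 16.2 in Homo liver 4 (next 14.0). Nphp4, counted with few reads, had 1.25 CPM in WT liver 5 (next 0.337) and 0.861 in Het liver 6 (next 0.210). Kif3b was low at 8.85 CPM in Homo liver 1 (next lowest 12.6), Tmem231 was low at 0.538 in Homo liver 5 (next lowest 0.907), and B9d2 was high at 3.12 in WT liver 6 (next 2.26). Of these, leaving out Homo liver 1 ended the call of Kif3b for mouse number (slope 0.28, adjusted p = 0.0562, edgeR), and leaving out Het liver 6 ended that of Nphp4 (slope 2.99, adjusted p = 0.131).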

How the results depend on the processing

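No paired analysis was possible because the labels give each mouse its own number, shared by no other genotype. In Homo against WT livers, 79 genes were called in edgeR, 304 with DESeq2, 38 when mouse number was a covariate, 25 without mice 1 to 3, 2 among mice 8 to 13, and 36 to 122 with 1 library left out. Of the 51, DESeq2 called 2, and leaving out 1 library gave 0 to 1. Their median of 0.13 became -0.0119 with the covariate, 0.00428 without mice 1 to 3 and -0.0193 among mice 8 to 13, where Dync2h1 (-0.29) and Ift140 (-0.10) changed sign. Het against WT gave 4 genes, 28 with DESeq2, 50 among mice 1 to 7, and 4 to 7 with 1 library left out. Homo against Het gave 30 genes, 102 with DESeq2, 16 with limma-voom, 0 among mice 14 to 20 (where 1 of the 51 had an unadjusted p under 0.05), and 9 to 29 with 1 library left out. For mouse number, 1054 genes were called, 1713 with DESeq2, 351 without mice 1 to 3, 524 within WT, 2 within Het, 7 within Homo, and 649 to 1086 with 1 library left out. Of the 51, 4 were called, 1 within WT, 0 within Het (8 at unadjusted p under 0.05), 0 within Homo livers (3), and 2 to 5 with 1 library left out. Their median slope was -0.0366 within Homo livers. The fits within 1 genotype were chosen after seeing the data and use 6 or 7 mice; the other causes were not tested. DESeq2 size factors in edgeR and both other filters kept each count of genes within 1.5 times. Depth limits Nphp4, Ift57, Bbs1 and the other genes under 1 CPM.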
